A study of Mus musculus with 8 samples.

Results

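The 41 genes described here make up the machinery that copies DNA in S phase and supplies its building blocks. They were chosen by name as genes of replication licensing, the replication fork, the replicative polymerases and deoxynucleotide (dNTP) synthesis. All 41 were found among the 16538 genes of the table of sorted DN3 thymocytes. RPKM, the unit of the table, is the number of reads counted on a gene scaled to the length of the gene and to the reads counted in the library. Averaged across all 8 libraries, 38 members reached 1 RPKM and were tested, while Orc1, Pola1 and Prim2 fell below that filter.

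Before S phase, the origin recognition complex, CDC6 and CDT1 load the MCM2 to MCM7 helicase onto origins, and CDC45 and the GINS complex then activate it. Primase and DNA polymerase alpha start each strand, replication factor C (RFC) loads the PCNA clamp for the polymerases that extend it, and FEN1 and DNA ligase 1 join the lagging strand. Many of these genes are transcribed as cells pass from G1 into S phase. DN3 is the thymocyte stage at which the T cell receptor beta chain is rearranged and tested, and cells that pass this test, called β-selection, begin to divide rapidly.

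The RNA came from double-negative stage 3 (DN3) thymocytes of C57BL/6 mice aged 6 weeks, sorted as lineage-negative CD4- CD8- CD44- CD25+ cells. The 4 control libraries came from Sel1l-f/f mice, and the 4 Sel1l CKO libraries came from Sel1l-f/f mice that also carry hCD2cre, a human CD2-driven iCre recombinase active from early thymocytes onwards. Both groups therefore carry the floxed alleles, and the control mice have no Cre. SEL1L is the adaptor of the HRD1 ubiquitin ligase in endoplasmic reticulum-associated degradation, and the comparison asks how its loss changes transcription at this stage. In RNA from a whole sorted population, a larger share of cells in S phase and more RNA per cell cannot be told apart.

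The reads counted on genes, recovered from the steps between low RPKM values, ranged from 32900252 to 50401358 per library, and Sel1l CKO replicates 3 and 4 were the shallowest. Values of single libraries are listed below in the order of replicates 1 to 4. For Sel1l itself they were 1.83, 1.66, 1.61 and 1.57 RPKM in control and 0.917, 0.876, 1.32 and 1.23 RPKM in Sel1l CKO, so all 4 Sel1l CKO libraries lay below all 4 control libraries. The log2 fold change of Sel1l was -0.89 when replicates 1 and 2 were taken alone, and -0.30 for replicates 3 and 4. On the second principal component of the tested genes (22.1% of the variance), Sel1l CKO replicates 3 and 4 stood apart from the other 6 libraries. The labels name no batch, date or litter for the replicate numbers and do not say whether each library is 1 mouse, so p-values measure the spread between these libraries. Replicates 1 and 2 were also described apart from replicates 3 and 4, with 2 libraries of each genotype in each set. That split was set together with the choice of genes, when earlier results of these data were known, so tests between the sets describe these 8 libraries. All 10 genes of the DN3 marker list reached the filter, and their summed level ranged from 333.5 to 417 RPKM in control and from 254 to 300.3 RPKM in Sel1l CKO libraries.

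Exon length here is the total of all annotated exons of a gene, which can exceed the length of its main transcript. Levels on exon length therefore compare between genes only roughly. On this measure Pcna was the highest of the 41 genes. It encodes the sliding clamp and stood at 229 ± 14.5 RPKM on exon length in control (SD, n = 4). The helicase subunit Mcm6 followed at 164 ± 7.08 RPKM, then Mcm7 at 140.2 ± 5.29 RPKM and Mcm5 at 129.6 ± 8.07 RPKM. At the low end, Orc1, the large subunit of the origin recognition complex, stood at 6.92 ± 0.898 RPKM and Gins3 at 8.04 ± 0.939 RPKM on exon length. Of the 40 pairs of neighbours in this order, only 5 had control libraries that did not overlap, among them Pcna and Mcm6, and Mcm6 and Mcm7. The remaining 35 pairs of neighbours overlapped. The deposited values are scaled to the whole gene with its introns, and on exon length Pola1 and Prim2, which fell below the filter, stood at 10.1 ± 1.27 and 13.4 ± 0.51 RPKM in control. The number of reads on a member in a library ranged from 573, on Orc1, to 46080, on Mcm6, so counting error was small for all 41. For 11 members the gene overlaps another protein-coding gene of the table on the opposite strand, and none overlaps such a gene on the same strand. Overlaps with other genes, such as non-coding ones, were not searched.

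**Figure D1:**
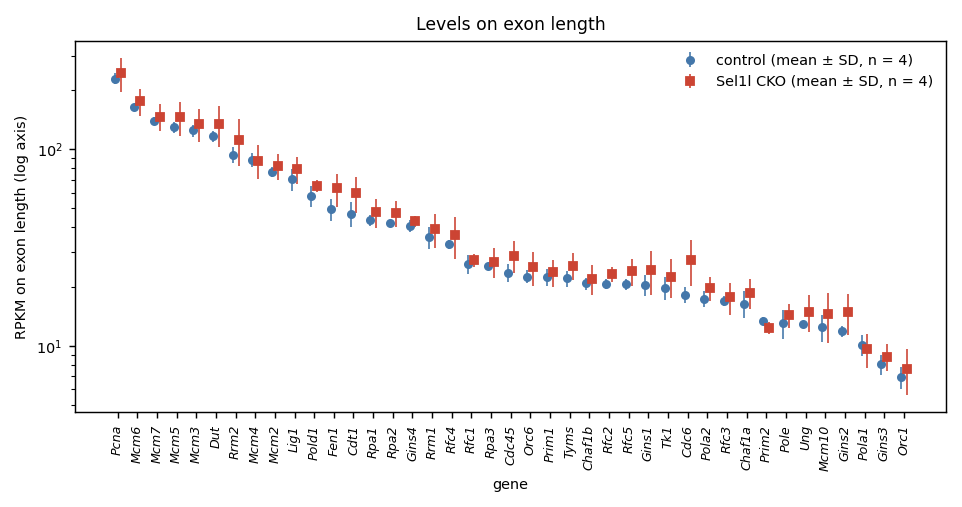
Level of each of the 41 genes on exon length, as mean ± SD over 4 control (circles) and 4 Sel1l CKO (squares) libraries, on a log axis in RPKM and ordered by the control mean. Pcna is highest at 229 RPKM in control and Orc1 lowest at 6.92 RPKM, and neighbouring genes mostly overlap within their SD.

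Promoters of 34 of the 41 members were matched by symbol in RefSeq sequences of build GRCm38.p6, each from 250 bases before to 50 bases after a start of the gene. These members had 38 promoters, since 3 members had several starts, and 30 of the 38 starts lay in an annotated transcript of the gene. Promoters were searched on both strands for 4 strings of the E2F type, TTTCCCGC, TTTGGCGC, TTTGCCGC and TTTCGCGC. The CCAAT box (CCAAT, or ATTGG on the other strand) was searched for as well, and a gene counted if any of its promoters held the string. E2F factors drive many genes of the G1 to S transition. An E2F-type string was in the promoter of 12 of the 34 members (35.3%), against 2.6% of the 27025 genes with a promoter and 5.85% of the tested genes with one. CCAAT was in the promoters of 21 members (61.8%), against 41.1% of all genes with a promoter and 44.0% of those tested. Among further replication genes, 10 of the 30 with a promoter (33.3%) held an E2F-type string and 14 (46.7%) held CCAAT, and among further nucleotide synthesis genes 1 of 23 and 9 of 23 did. In the promoters of the G2/M list, 14 of 16 genes held CCAAT and 1 of 16 held an E2F-type string. A string match is a description of the letters and not a bound site. The strings can overlap, since an E2F-type string that ends in GCGC can run on into a CCAAT or a second E2F-type string.

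The promoters below run from 220 bases before to 30 bases after the start and belong to the members with the lowest p for genotype (Cdc6 and Cdc45) and for the replicate sets (Mcm2 and Rrm2) among those whose window held a string. Each is written 5′ to 3′ on the strand of the gene, with the strings in capitals. Cdc6 lies on the plus strand and its window is chr11:98907931-98908180. That of Cdc45 is on the minus strand at chr16:18811943-18812192, that of Mcm2 on the minus strand at chr6:88898751-88899000 and that of Rrm2 on the plus strand at chr12:24708034-24708283. Cdc6 holds 1 E2F-type string, read on the other strand (GCGGGAAA), and the remaining 3 windows hold CCAAT strings alone.
Cdc6: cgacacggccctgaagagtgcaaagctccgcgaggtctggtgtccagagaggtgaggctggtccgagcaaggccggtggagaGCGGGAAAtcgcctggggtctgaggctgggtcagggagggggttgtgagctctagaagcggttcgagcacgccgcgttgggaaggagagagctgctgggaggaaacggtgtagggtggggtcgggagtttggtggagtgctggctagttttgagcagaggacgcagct
Cdc45: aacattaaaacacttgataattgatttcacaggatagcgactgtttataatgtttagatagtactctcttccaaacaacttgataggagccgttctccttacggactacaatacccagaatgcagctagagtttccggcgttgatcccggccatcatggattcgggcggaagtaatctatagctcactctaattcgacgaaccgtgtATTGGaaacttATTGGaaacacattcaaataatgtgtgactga
Mcm2: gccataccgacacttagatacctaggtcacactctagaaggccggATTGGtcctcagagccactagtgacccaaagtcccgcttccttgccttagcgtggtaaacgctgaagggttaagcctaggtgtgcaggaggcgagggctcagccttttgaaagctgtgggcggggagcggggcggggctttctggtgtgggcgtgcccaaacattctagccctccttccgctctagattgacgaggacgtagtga
Rrm2: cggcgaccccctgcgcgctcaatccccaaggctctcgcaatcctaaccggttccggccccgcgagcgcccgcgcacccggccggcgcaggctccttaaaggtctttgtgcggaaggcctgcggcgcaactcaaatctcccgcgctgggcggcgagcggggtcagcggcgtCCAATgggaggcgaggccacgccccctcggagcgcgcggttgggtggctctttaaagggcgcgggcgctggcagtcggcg

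Between genotypes, no member passed an adjusted p under 0.05 when all 8 libraries were compared (limma on log2 of RPKM plus 0.1, adjusted over the 6512 genes tested). Among all genes tested, 5.28% passed, 278 higher and 66 lower in Sel1l CKO. At an unadjusted p under 0.05 there were 2 members, Cdc6 and Fen1, both higher in Sel1l CKO, against 20.8% of all genes. The log2 fold change was above 0 in 37 of the 38 members, with a median of 0.16, and below 0 for Mcm4 alone. Over all genes tested the median was 0.01 and 3425 of 6512 were above 0. With quantile normalization 35 of the 38 were above 0, and with limma's array weights, which count Sel1l CKO replicates 1 and 2 least, 10 were above 0 and the median was -0.04. The median was 0.074 without Sel1l CKO replicate 1, 0.077 without replicate 2 and 0.084 without control replicate 3, and between 0.16 and 0.22 without any 1 of the other libraries. At an unadjusted p under 0.05 there were 4 members without Sel1l CKO replicate 3, 9 without replicate 4, 2 without control replicate 1 or 4 and 1 without any of the remaining libraries. On whole reads recovered from the RPKM steps, limma voom also called no member, with 3 at an unadjusted p under 0.05.

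Of the origin licensing genes, Cdc6 stood furthest from control. CDC6 is the loading factor that brings the MCM helicase to origins. The control libraries held 6.25, 6.29, 5.11 and 5.92 RPKM of its transcript, and the Sel1l CKO libraries 11.5, 10.2, 7.05 and 6.72 RPKM. All 4 Sel1l CKO libraries lay above all 4 control libraries, and replicates 1 and 2 were the highest of all. The mean went from 5.89 ± 0.546 to 8.86 ± 2.34 RPKM (SD, n = 4 for both), with a log2 fold change of 0.55 ± 0.17 (SE, limma adjusted p = 0.111). An exact permutation test of this gene alone gave p = 0.0286, two-sided, which is the lowest value that groups of 4 can reach. Any gene with all 4 Sel1l CKO libraries above all 4 control libraries gets this value, so it only restates that order. With the replicate set as a second term, Cdc6 passed (limma adjusted p = 0.0136), as the sole member among the 5.27% of all genes that were higher in that fit. No other member had all 4 Sel1l CKO libraries above all 4 control libraries, an order found in 9.15% of the genes tested.

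CDT1 works beside CDC6 in loading the helicase. Control libraries held 32.2, 28.6, 23.2 and 31.5 RPKM of Cdt1 and Sel1l CKO libraries 44.8, 41.2, 30.5 and 30.3 RPKM, so that Sel1l CKO replicates 3 and 4 lay within the control range. Its log2 fold change was 0.34 ± 0.15 (SE, limma adjusted p = 0.256). The 6 helicase subunits, Mcm2 to Mcm7, had log2 fold changes from -0.03 (Mcm4) to 0.15 (Mcm5). Mcm7 ranged from 75.3 to 81.5 RPKM in control, whereas the Sel1l CKO libraries held 96.9, 91.6, 72.3 and 70.8 RPKM, with the control range between the 2 Sel1l CKO pairs. Its log2 fold change was 0.05, with a 95% interval from -0.19 to 0.30. For Mcm4 the corresponding interval ran from -0.34 to 0.28 around -0.03. Orc6, a subunit of the origin recognition complex, averaged 6.42 ± 0.487 RPKM in control libraries against 7.16 ± 1.42 RPKM with the deletion, with a log2 fold change of 0.14. Orc1 averaged 0.68 ± 0.0882 and 0.747 ± 0.199 RPKM (exact permutation test, two-sided, p = 0.629).

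Among the genes that activate the helicase, Gins2 and Cdc45 were next. Gins2 encodes a subunit of the GINS complex and measured 4.87, 4.63, 4.14 and 4.60 RPKM in the control libraries, against 7.07, 6.61, 4.29 and 4.81 RPKM in Sel1l CKO. Only Sel1l CKO replicates 1 and 2 were clear of the control libraries, and the log2 fold change was 0.29 ± 0.15 (SE, limma adjusted p = 0.327). Cdc45, whose product travels with the helicase, measured 2.74, 2.71, 2.20 and 2.80 RPKM in the control libraries, against 3.51, 3.86, 2.72 and 2.69 RPKM in Sel1l CKO. Control replicate 3 was its lowest library, and the log2 fold change was 0.27 ± 0.13 (SE, limma adjusted p = 0.286). Mcm10 and the other GINS genes had log2 fold changes between 0.07 (Gins4) and 0.21 (Gins1).

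No polymerase or primase gene passed. The tested members were Pola2 and Prim1, which encode subunits of the polymerase alpha-primase complex, and Pold1 and Pole, the catalytic subunits of polymerases delta and epsilon. Their log2 fold changes ran from 0.07 to 0.18. Control libraries held 3.14, 3.01, 2.14 and 3.04 RPKM of Pole and Sel1l CKO libraries 3.03, 3.74, 2.88 and 2.79 RPKM. Apart from the low control replicate 3 and the high Sel1l CKO replicate 2, its libraries lay between 2.79 and 3.14 RPKM. Prim2 was the sole member of this group with a lower mean in Sel1l CKO besides Pola1, at 0.369 ± 0.014 against 0.339 ± 0.0245 RPKM (exact permutation test, two-sided, p = 0.114). Pola1 was at 0.272 ± 0.0343 and 0.259 ± 0.0508 RPKM (exact permutation test, two-sided, p = 0.657).

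None of the clamp and clamp loader genes passed. Control libraries held 132, 136, 121 and 140.4 RPKM of Pcna and Sel1l CKO libraries 162, 169, 121 and 115 RPKM. Sel1l CKO replicates 1 and 2 were its highest libraries and replicate 4 its lowest, and the log2 fold change was 0.08 with a 95% interval from -0.22 to 0.37. Of the 5 subunits of the clamp loader, Rfc2 had the lowest p, with a log2 fold change of 0.16 ± 0.08 (SE, limma adjusted p = 0.282). Rfc2 overlaps Lat2 on the opposite strand. The single-strand binding protein genes Rpa1, Rpa2 and Rpa3 had log2 fold changes between 0.05 and 0.17.

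Fen1, the flap endonuclease that trims Okazaki fragments, measured 25.7, 25.3, 19.4 and 24.9 RPKM in the control libraries, against 35.9, 34.3, 28.1 and 23.2 RPKM in Sel1l CKO. Sel1l CKO replicate 4 lay within the control range, and control replicate 3 was lowest of all 8. Its log2 fold change was 0.34 ± 0.15 (SE, limma adjusted p = 0.236). Lig1, the ligase that seals the fragments, had a log2 fold change of 0.16.

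For all 6 genes of dNTP supply and uracil removal, Sel1l CKO replicates 1 and 2 lay above the other libraries. Rrm2, the small subunit of ribonucleotide reductase, measured 46.6, 45.4, 37.9 and 46.7 RPKM in the control libraries, against 64.1, 65.6, 40.2 and 40.4 RPKM in Sel1l CKO. Sel1l CKO replicates 1 and 2 were above every control library, and replicates 3 and 4 were below 3 of the 4. The log2 fold change over all libraries was 0.22 ± 0.18 (SE, limma adjusted p = 0.506). Rrm1, the large subunit, the thymidylate synthase gene Tyms, the thymidine kinase gene Tk1, the dUTPase gene Dut and the uracil glycosylase gene Ung had log2 fold changes from 0.13 to 0.20. Chaf1a and Chaf1b, of the chromatin assembly factor that places histones on new DNA, had log2 fold changes of 0.18 and 0.07.

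**Figure D2:**
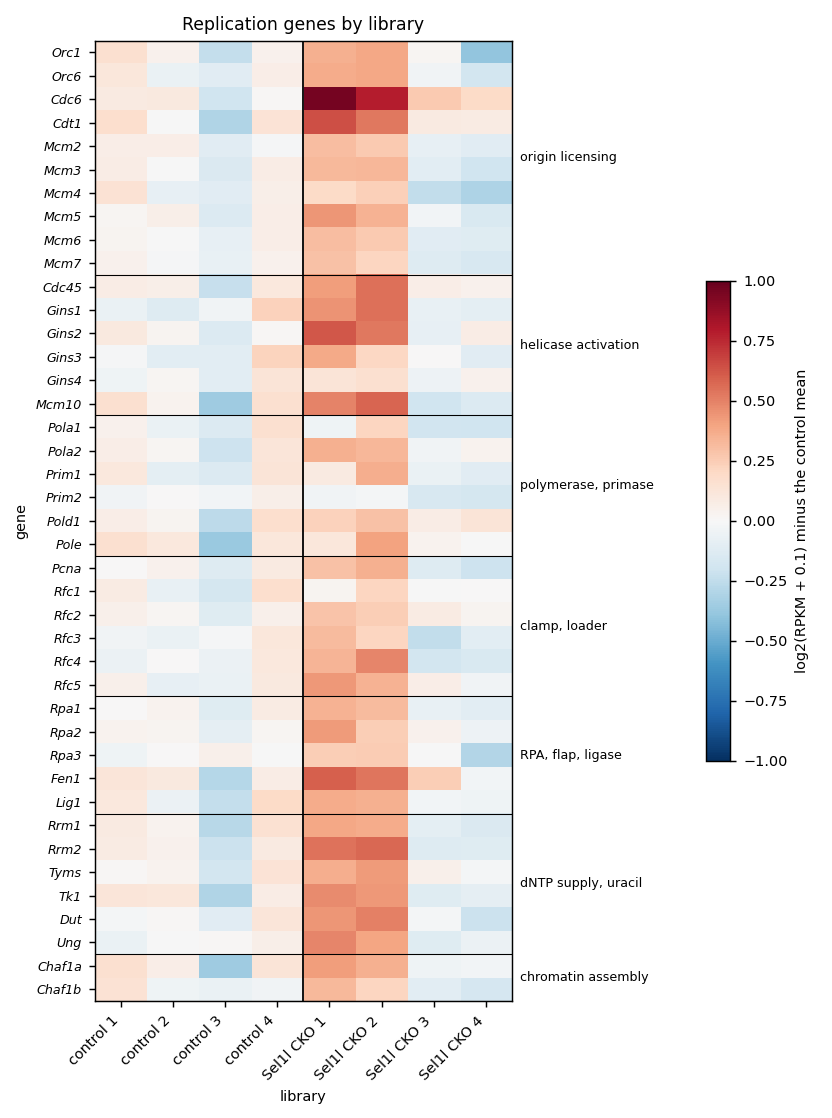
Difference of log2(RPKM + 0.1) from the control mean for each of the 41 genes (vertical axis, grouped by role) in each of the 8 libraries (horizontal axis), with red above and blue below the control mean. Sel1l CKO replicates 1 and 2 are red for nearly all genes, whereas replicates 3 and 4 and control replicate 3 are mostly pale or blue.

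The 4 Sel1l CKO libraries were thus not alike for these genes. Sel1l CKO replicates 1 and 2 both lay above all 6 remaining libraries for 34 of the 38 tested members and for 35 of all 41. The same order was found in 21.0% of all genes tested. The exceptions were Gins3, Pola1, Prim1, Prim2, Pole and Rfc1, so that 4 of the 6 polymerase and primase genes were among them. The lowest library was control replicate 3 for 22 members, Sel1l CKO replicate 3 or 4 for 17 and another library for 2. The mean difference from the control mean over the 38 tested members was 0.37 in both Sel1l CKO replicates 1 and 2 on the log2 scale, but -0.04 and -0.08 in replicates 3 and 4. Control replicates 1 to 4 stood at 0.06, 0.01, -0.16 and 0.09 on this scale. Over all genes tested, every library lay between -0.01 and 0.03.

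Within replicates 1 and 2, 11 of the 38 members were higher in Sel1l CKO at an adjusted p under 0.05 and none was lower, where 7.48% of all genes tested were called higher. All 38 had a log2 fold change above 0, with a median of 0.31, against 0.03 over all genes. The 11 were Cdc6, Mcm5 and Mcm6 of origin licensing, Gins1 and Gins2 of helicase activation, the clamp loader genes Rfc3, Rfc4 and Rfc5, and Rrm2, Dut and Ung of dNTP supply and uracil removal. None of the polymerase, RPA, flap or ligase genes passed. All 5 RPA, flap and ligase genes nevertheless had an unadjusted p under 0.05, with log2 fold changes from 0.27 to 0.46. That of Mcm6, which passed, was 0.27. With voom on recovered reads Fen1, Rpa1 and Rpa2 passed (limma voom adjusted p = 0.0296, 0.0299 and 0.0444), whereas Rpa3 and Lig1 did not. Largest was the difference of Cdc6, with a log2 fold change of 0.78 ± 0.10 (SE, limma adjusted p = 0.00382), which is 1.73-fold between the means. For Gins1 it was 0.60 ± 0.11 (SE, limma adjusted p = 0.0173), and the 4 control libraries held 1.14, 1.08, 1.16 and 1.42 RPKM, against 1.67, 1.79, 1.13 and 1.11 RPKM in Sel1l CKO. The count of 11 rests on 2 libraries of each genotype and on a spread shared by all 8. It was 1, 2, 28 and 27 when control replicates 1 to 4 were left out in turn, and 6, 3, 7 and 7 for Sel1l CKO replicates 1 to 4.

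Ung, the enzyme that removes uracil from DNA, had the lowest p among the members for the difference in genotype effect between the sets. The control libraries held 7.57, 7.91, 8.002 and 8.24 RPKM of it, and the Sel1l CKO libraries 11.2, 10.5, 7.29 and 7.63 RPKM. Sel1l CKO replicates 1 and 2 were above, and replicate 3 below, all 4 control libraries. Within replicates 1 and 2 its log2 fold change was 0.48 ± 0.07 (SE, limma adjusted p = 0.00896), and within replicates 3 and 4 it was -0.12 ± 0.07 (SE, limma adjusted p = 0.459).

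**Figure D3:**
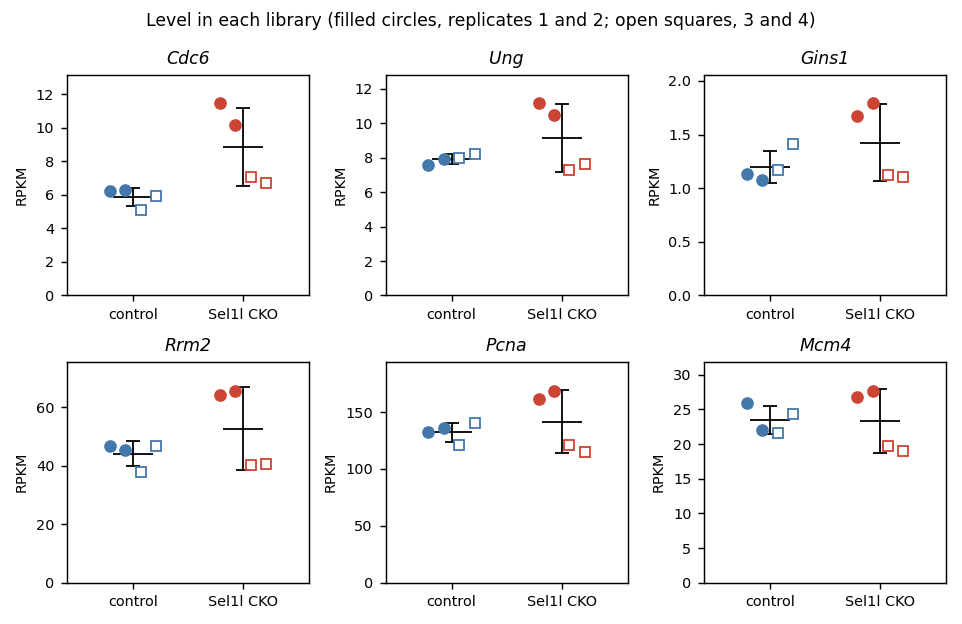
RPKM of 6 genes in every library, with the mean and SD (n = 4) as bars, replicates 1 and 2 as filled circles and replicates 3 and 4 as open squares. In each panel the filled Sel1l CKO circles are the highest points, and the open Sel1l CKO squares lie near or below the control libraries, except for Cdc6, where they lie above them.

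Within replicates 3 and 4, no member passed the adjusted p (4.73% of all genes tested did), and 3 had an unadjusted p under 0.05, against 17.5% of all genes, a share above that of the members. The 3 were Cdc6, at a log2 fold change of 0.32 ± 0.10 (SE, limma adjusted p = 0.142), and Rfc3 and Mcm4, at -0.22 and -0.25. The log2 fold change was above 0 for 14 members and below 0 for 24, with a median of -0.06. That median was -0.16 without control replicate 3 and 0.08 without control replicate 4, so its sign rests on which control library is present.

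**Figure D4:**
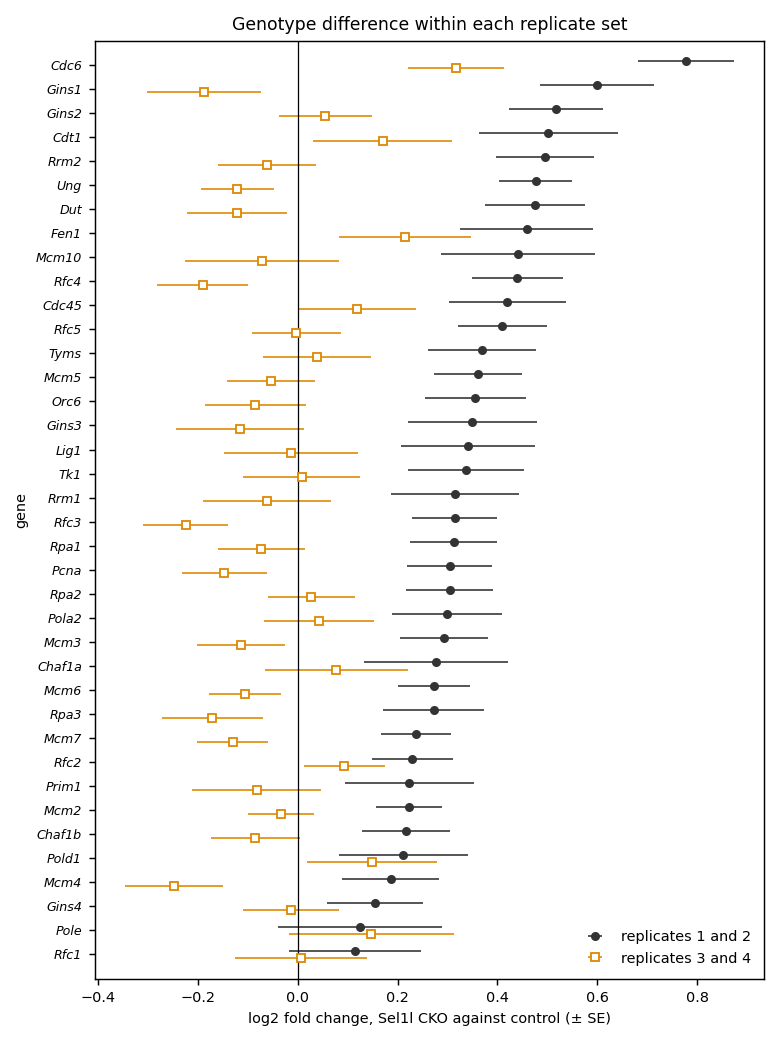
Log2 fold change of Sel1l CKO against control, with SE from limma, for the 38 tested genes within replicates 1 and 2 (filled circles) and within replicates 3 and 4 (open squares), ordered by the former. All 38 circles lie above 0, with a median of 0.31, while the squares lie on both sides of 0, with a median of -0.06.

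The difference between these genotype effects was tested itself. No member passed the adjusted p for genotype by replicate set, which 0.276% of all genes passed. At an unadjusted p under 0.05 the genotype effect was smaller in replicates 3 and 4 for 22 of the 38 members, against 9.37% of all genes. The interaction was below 0 for 37 members, with a median of -0.38 against -0.01 over all genes, and Pole alone was above 0. The lowest p was that of Ung (-0.60 ± 0.10, SE, limma adjusted p = 0.072), followed by Rfc4 (-0.63 ± 0.13, SE, limma adjusted p = 0.0967). Without control replicate 3, 1 member passed.

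Each genotype was then compared with itself. In Sel1l CKO, 24 of the 38 members were lower in replicates 3 and 4 than in 1 and 2 at an adjusted p under 0.05, and none was higher. Among all genes tested, 5.88% were lower. The median log2 difference over the members was -0.43, and all 38 were below 0. The 24 included 8 of the 9 tested licensing genes and 5 of the 6 genes of dNTP supply and uracil removal, but none of the 4 tested polymerase and primase genes. The log2 differences of these 4 ran from -0.34 to -0.16, and 2 of them had an unadjusted p under 0.05, where 1111 of the 6512 genes tested were lower. Rrm2 fell by 0.68 ± 0.10 on the log2 scale (SE, limma adjusted p = 0.011) and Pcna by 0.49 ± 0.08 (SE, limma adjusted p = 0.0176). The count was 7 and 4 without Sel1l CKO replicates 1 and 2, and 0 without replicate 3 or replicate 4, each of which leaves a lone library on 1 side. In control, no member differed between the sets (0.783% of all genes did), and none had an unadjusted p under 0.05, against 6.42% of all genes. The median difference there was -0.06, with 29 members below 0.

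Over both genotypes, with genotype in the fit, no member passed for replicates 3 and 4 against 1 and 2, where 1.34% of all genes did. At an unadjusted p under 0.05, 23 of the 38 members were lower in replicates 3 and 4, against 8.63% of all genes, and all 38 differences were below 0, with a median of -0.25. Tk1 had the lowest p, at -0.40 ± 0.10 (SE, limma adjusted p = 0.127). Without control replicate 4, 17 members passed. The 23 became 11, 12, 11 and 10 when Sel1l CKO replicates 1 to 4 were left out in turn, 15 without control replicate 3 and 35 without control replicate 4.

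The other genes of the pathway were taken from lists of further replication genes (30 of 35 tested), further nucleotide synthesis genes (21 of 26), G1/S regulators (22 of 31) and G2/M genes (all 20). None of these passed for genotype over all 8 libraries, and their median log2 fold changes were 0.06, 0.05, 0.06 and 0.27. Within replicates 1 and 2, where 7.48% of all genes were called higher, 2 of the 30 further replication genes were higher, Gmnn at 0.63 (limma adjusted p = 0.0176) and Pold2 at 0.41 (limma adjusted p = 0.0287). Gmnn encodes geminin, the inhibitor of CDT1, and Pold2 a subunit of polymerase delta. In the same comparison 3 of the 21 further nucleotide synthesis genes were higher, namely Gmps and Gart, of purine synthesis, and Ctps, which makes CTP. The difference between the Sel1l CKO pairs was also found in these lists. Lower in Sel1l CKO replicates 3 and 4 at an adjusted p under 0.05 were 10 of the 21 further nucleotide synthesis genes. So were 5 of the 30 further replication genes and 4 of the 22 G1/S regulators, against 5.88% of all genes. At an unadjusted p under 0.05, the genotype effect was smaller in replicates 3 and 4 for 11 of the 21 further nucleotide synthesis genes. The same held for 7 of the 30 further replication genes and 4 of the 22 G1/S regulators. It held for no G2/M gene and for 9.37% of all genes. No G2/M gene passed in any comparison. All 20 were still lower in Sel1l CKO replicates 3 and 4 than in 1 and 2, with a median log2 difference of -0.45, against -0.43 for the members. At an unadjusted p under 0.05, 8 of the 20 were lower there, against 1111 of the 6512 genes tested. Within replicates 1 and 2 the median log2 fold change of the G2/M list was 0.41, against 0.31 for the members. The G2/M list nevertheless had a larger spread in control than the replication genes, from -0.47 in replicate 3 to 0.29 in replicate 4 in its mean log2 difference from the control mean, and stood at 0.37, 0.51, -0.04 and -0.00394 in Sel1l CKO replicates 1 to 4.

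**Figure D5:**
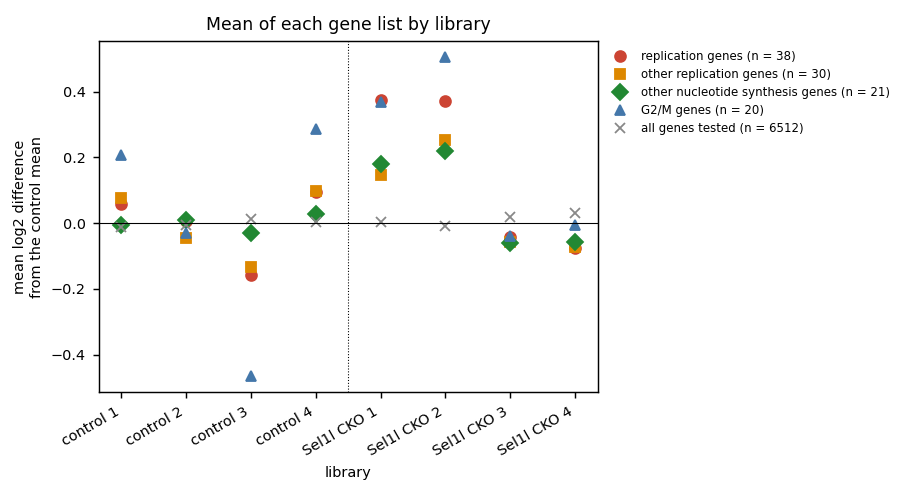
Mean difference of log2(RPKM + 0.1) from the control mean over the tested genes of each list (vertical axis) in each of the 8 libraries (horizontal axis). The 38 replication genes are at 0.37 in Sel1l CKO replicates 1 and 2 and between -0.16 and 0.09 in all other libraries, and all genes tested stay near 0.

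Among the G1/S regulators, Cdkn1b, which encodes the cyclin-dependent kinase inhibitor p27, followed the replicate sets in both genotypes. The control libraries held 13.2, 12.8, 25.9 and 20.4 RPKM of it, and the Sel1l CKO libraries 8.52, 9.36, 14.9 and 13.7 RPKM. Replicates 3 and 4 were above replicates 1 and 2 within each genotype, and the log2 difference between the sets was 0.74 (limma adjusted p = 0.00421). Its genotype difference was -0.54 within replicates 1 and 2 (limma adjusted p = 0.026) and -0.68 within replicates 3 and 4 (limma adjusted p = 0.016). Mycn, a transcription factor gene of the MYC family, was likewise higher in replicates 3 and 4 (log2 difference 0.64, limma adjusted p = 0.0479). It was lower in Sel1l CKO by 0.71 and 0.98 on the log2 scale within the 2 sets, in that order (limma adjusted p = 0.0336 and 0.0161). Ccne1, the gene of cyclin E1, measured 2.71, 2.71, 2.18 and 2.99 RPKM in the control libraries, against 4.07, 4.67, 2.42 and 2.64 RPKM in Sel1l CKO. As with most members, Sel1l CKO replicates 1 and 2 were its highest libraries (log2 fold change 0.67 within replicates 1 and 2, limma adjusted p = 0.0254). Cdk6 had the opposite order, with its lowest values, 3.32 and 3.35 RPKM, in these libraries.

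Markers of other stages and cell types were read in the same libraries. The DN3 list of 10 genes summed to 300.3, 254, 299 and 294 RPKM in the Sel1l CKO libraries. Between genotypes, 9 of the 10 had a log2 fold change below 0, with a median of -0.27 over the list. None passed the adjusted p, and 5 were lower at an unadjusted p under 0.05, where 20.8% of all genes differed in either direction. Within Sel1l CKO, 5 genes of the DN3 list were higher and 5 lower in replicates 3 and 4 than in 1 and 2, with a median log2 difference of 0.03. The list of genes that rise after β-selection (6 genes, 3 of them past the filter) summed to between 51.8 and 63.4 RPKM in control and to 46.3, 61.9, 58.2 and 60.3 RPKM in Sel1l CKO replicates 1 to 4. Of the 3 tested, 1 was higher in Sel1l CKO at an adjusted p under 0.05, with a log2 fold change of 0.90, and 2 were below 0. Among all genes tested, 5.28% passed in either direction. In neither list did the sums of Sel1l CKO replicates 1 and 2 lie on the same side of replicates 3 and 4. The double-positive list summed to 4.40 RPKM or less in every library, the erythroid list to 2.66 RPKM or less and the DN2 and early progenitor list to 0.423 RPKM or less. The B cell list summed to between 5.32 and 10.2 RPKM, with 5 of its 6 genes at a mean under 0.1. In the myeloid list 4 of 6 genes, in the NK list 2 of 4 and in the stroma list 3 of 4 were at a mean under 0.1, and these lists summed to between 12.5 and 19.5, 44.2 and 68.0, and 1.95 and 4.96 RPKM. In all 4 lists the highest library was a control library. In the myeloid, NK and stroma lists every control library lay above every Sel1l CKO library. The myeloid list spanned 16.7 to 19.5 RPKM in control and 12.5 to 15.4 RPKM in Sel1l CKO. The NK list spanned 57.35 to 68.0 against 44.2 to 53.8 RPKM, and the stroma list 3.14 to 4.96 against 1.95 to 2.30 RPKM. In the B cell list the genotypes overlapped. The 1 stroma gene tested passed the adjusted p for genotype, with a log2 fold change of -0.95. The part of the marker levels, of Sel1l and of depth in the differences between Sel1l CKO libraries was not tested.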

How the data were processed

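RNA-seq libraries of sorted DN3 thymocytes (4 control, 4 Sel1l CKO) were grouped by the genotype in the labels. The authors made stranded mRNA libraries, aligned reads with STAR (2.5.2b) to GRCm38, counted them with HTSeq (2.7) on protein-coding genes, per the submitters' processing notes and methods, and deposited RPKM values, 1 column per library. Whether counting used the strand is not given in the sources used here. With gene spans of GENCODE M21, 77.2% of genes gave whole reads in every library (tolerance 0.05 reads), against 4.1% with exon length, which gave the library totals and, with solved lengths for 8 members, reads for all 41.

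RPKM plus 0.1 was taken to log2, and genes with a mean of at least 1 were tested with limma 3.58.1 (R 4.3.3, mean-variance trend, two-sided, Benjamini-Hochberg over 6512 genes), after tests on simulated data. Tables were made with Python 3.11.15, numpy 2.4.6, pandas 2.3.3 and matplotlib 3.10.9. Named members are the 6 of lowest genotype p, the 4 highest and 4 lowest by RPKM, those below the filter or with a library standing apart, and those past a test. Members, lists and the split of replicates were chosen with earlier results of these data known. The comparisons within Sel1l CKO and within control, the alternatives for the counts within sets and the genes named for these were chosen after seeing the data. The main fit did not pair libraries by replicate number, and the labels do not say whether they were paired. Deviations of same-numbered libraries from their genotype means correlated at 0.162, 0.0973, 0.445 and 0.00514, which cannot settle this. Those of control replicates 1 and 2 correlated at 0.0973 to 0.292 with Sel1l CKO replicates 1 and 2, and at -0.25 to -0.22 with 3 and 4. Control replicate 3 correlated at -0.376 and -0.359 with the former and at 0.445 and 0.404 with the latter. Control replicate 4 lay between -0.083 and 0.087. Alternatives were other pseudocounts, filters, scalings, weights, models and each library left out.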

Additional observations from a re-analysis of the deposited data

Results flagged for a closer look

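For 8 members, 1 library stood apart from the other 3 of its genotype, by a gap larger than the 95% critical value of Dixon's ratio for 4 samples. Chance flags about 1 in 20 such groups, or 4.2 of the 84 groups checked here. In 6 of the 8 the library was control replicate 3, and the value was low. Cdc45 was at 2.20 RPKM there, against 2.71 to 2.80 RPKM in the other control libraries, and Pole was at 2.14 RPKM against 3.02 to 3.14 RPKM. Rpa2 was at 11.3 RPKM against 12.2 to 12.4 RPKM, and Fen1 at 19.4 RPKM against 24.9 to 25.7 RPKM. For Rrm2 the value was 37.9 RPKM against 45.4 to 46.7 RPKM, and for Tk1 it was 7.78 RPKM against 10.1 to 10.5 RPKM. Control replicate 3 was also the lowest control library for the mean of the G2/M genes, at -0.47 on the log2 scale from the control mean. Rfc1 was at 2.47 RPKM in Sel1l CKO replicate 2, against 2.11 to 2.16 RPKM in the other Sel1l CKO libraries. Chaf1b was at 4.82 RPKM in control replicate 1, against 4.16 to 4.26 RPKM in the other control libraries.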

How the results depend on the processing

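No alternative gave more than 1 member past the adjusted p for genotype. That member was Cdc6, with the replicate block (adjusted p = 0.0467) and with the replicate set as a second term (adjusted p = 0.0136), each of which gave 1 member, and 525 genes in all passed in the latter against 344. With limma array weights 640 genes passed for genotype, 2 members passed for the replicate sets (0 without weights), and the median genotype difference over the members turned to -0.039. Under these weights the log2 fold change of Mcm2 turned to -0.057, Rrm2 to -0.075, Mcm7 to -0.10, Pcna to -0.12, Gins1 to -0.036, Pole to -0.00874, Rfc1 to -0.027, Tk1 to -0.086 and Chaf1b to -0.086, and none of these differences passed. That of Pcna was -0.00311 with quantile normalization. With 1 library left out, Mcm7 ran from -0.026 and Chaf1b from -0.018 (both without Sel1l CKO replicate 1) to 0.12 and 0.14, and Pcna from -0.013 (without Sel1l CKO replicate 2) to 0.17.

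The count of 11 members higher within replicates 1 and 2 was 3 with no filter on low values, 5 with quantile normalization, 21 with voom on recovered reads, 3 with the replicate block and from 1 to 28 with 1 library left out. The count of 24 members lower in Sel1l CKO replicates 3 and 4 was 5 with no filter and from 0 to 31 with 1 library left out. For the replicate sets over both genotypes the count was from 0 to 17 with 1 library left out, and for genotype by replicate set from 0 to 1. The alternatives for the counts of 11 and 24 were chosen after seeing the data. The cause was not tested. The replicate block changed no other call of a member for genotype and gave 0 for genotype by replicate set.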
